A study of Saccharomyces cerevisiae with 70 samples.

Results

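The 55 to 85 min window of the menadione I course is described here, a stretch in which budding yeast carried high mRNA of oxidant-detoxifying enzymes and low mRNA of the ribosome. Its members are the 4 arrays whose titles give 2 mM MD at 55, 70, 77 and 85 min, and they were set against the 3 arrays at 0, 14 and 20 min, so 7 of the 14 arrays of the course and of the 70 arrays of the series enter the comparison. The rule takes arrays by their titles and uses no measured value. Saccharomyces cerevisiae RNA was measured on 2-colour arrays, with the stressed culture in Cy5 and a growing asynchronous culture in Cy3 as the common reference. MD is taken to be menadione, the agent that the title of the series names.

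The 55 to 85 min arrays and the 0 to 20 min arrays carry the same titled dose, and the labels give no strain, no time at which menadione was added, no arrest and no untreated course. Per the labels, the density of the experimental culture was 0.63 OD at 55, 70 and 77 min and 0.63 to 0.74 OD at 85 min, against 0.32 OD at 0 and 14 min and 0.40 OD at 20 min. Time, culture density and oxidant therefore cannot be told apart here. The windows set beside these come from other array designs: menadione II at 56, 63, 77 and 85 min against 0, 7, 14 and 21 min (strain DBY8724, synchronous after G1 arrest, no dose given), and peroxide I at 55, 63, 70, 77 and 85 min against 0, 14 and 20 min (0.24 mM hydrogen peroxide, released from alpha factor, with arrays repeated at 63 and 20 min averaged). Each course was 1 culture. Its time points stand in for replicates, and every p-value measures the spread between time points within windows, not between cultures.

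Menadione is a quinone. Flavoenzymes reduce it by 1 electron to a semiquinone that passes the electron to oxygen and makes superoxide, and it also reacts directly with glutathione and with protein thiols. Yeast answers such stress through Yap1, a transcription factor that gathers in the nucleus when its cysteines are oxidised or modified, and through Skn7 and Msn2/4. Their targets include thioredoxin and glutathione enzymes, peroxidases, reductases that take quinones and aldehydes to less reactive alcohols, and exporters. Genes of the ribosome and of its assembly are known to fall in yeast under many stresses.

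Values are the deposited log ratios of culture over reference, taken as log2 and centred on each array's median gene. The base, the direction and the authors' normalisation are not given in the sources used here. Direction was read from the dyes and from mating genes: at 0 min all 7 a-specific genes had positive values, with a list median of 1.66, as in cells of mating type a exposed to pheromone, and 1 of the 4 alpha-specific genes was positive (MF(ALPHA)1, at 0.63). The pheromone response list was mixed at 0 min, with a median of 0.71 and members from KAR3 at -1.56 to FIG1 at 3.98. Since the labels of this course give no mating type and no arrest, the mating genes cannot settle the direction by themselves. If the ratio ran the other way, every sign below would turn. Across the 14 arrays 6.31% to 14.5% of spots had no value, and the number of arrays limits the precision. The 77 min array had the widest spread of values of its window (median absolute deviation 0.78, against 0.58 to 0.62 on the other 3), and so did the 20 min array of its own (0.62, against 0.44 and 0.45). A lower ratio in a whole culture can be fewer cells with the mRNA or less mRNA per cell, which cannot be told apart. Probes of this array type may not separate near-identical genes, so values of the AAD, TDH and paired ribosomal protein genes can be shared with their paralogs.

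Of 5552 genes tested, 68 were higher at 55 to 85 min than at 0 to 20 min (1.22% of the genes tested) and 38 were lower (0.684%), at an adjusted p under 0.05 in limma. Where only 1 member of a list passed, nothing is read about the list from that count. Members of 5 lists of defence enzymes and exporters made up 23 of the 68, out of 74 members tested, and none of the 74 fell. Their median difference was 1.20, against 0.02 over all genes tested. Members of 3 lists of ribosome-related genes made up 20 of the 38, out of 227 tested, with a median difference of -1.06, and none of the 227 rose. The lists were chosen with earlier results of these data known, so these counts and medians are a description only. Of 5415 genes with a value on all 7 arrays, 370 lay higher on every 55 to 85 min array than on any 0 to 20 min array (6.83%) and 436 lay lower on every one (8.05%). The count of 106 was unsteady. Refits that left out the arrays at 55, 70, 77 and 85 min in turn gave 96, 40, 80 and 48, and those that left out 0, 14 and 20 min gave 70, 32 and 33. In all 7 refits 17 of the 68 and 1 of the 38 passed.

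**Figure D1:**
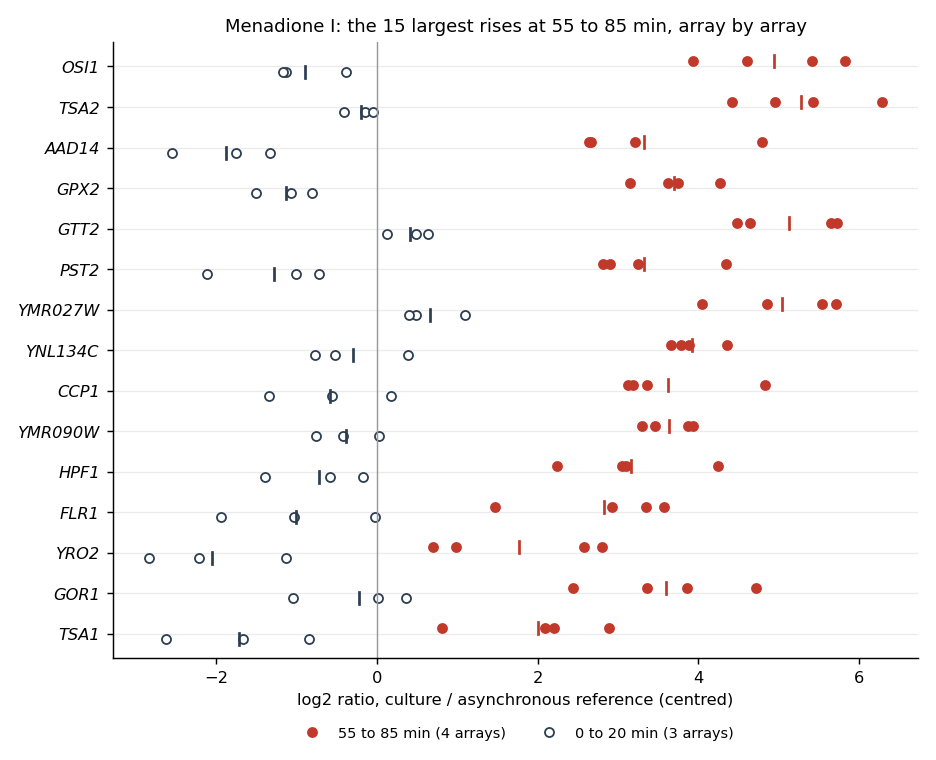
Log2 ratio of culture over asynchronous reference (x axis, array medians at 0) for the 15 genes with the largest rise among those that passed the test, had a value on all 7 arrays and did not overlap between windows, so GRE2, with no value at 14 min, is not shown. Filled points are the 4 arrays at 55 to 85 min, open points the 3 arrays at 0 to 20 min, and short bars their means. OSI1 and TSA2 lie farthest apart with differences of 5.84 and 5.48.

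With all arrays in the fit, the thioredoxin system had the largest share of risen members among the defence lists. That order did not hold without 14 min, with 3 of 11 members here and 2 of 6 enzymes of superoxide and peroxide. Thioredoxins and peroxiredoxins remove hydrogen peroxide and organic peroxides through pairs of cysteines and draw their electrons from NADPH. Of 11 members tested, 6 rose, none fell and all 11 differences were positive, with a median of 2.12. TSA2, the stress-inducible cytosolic peroxiredoxin, had log2 ratios of 5.43, 6.29, 4.96 and 4.42 at 55, 70, 77 and 85 min, against -0.42, -0.15 and -0.05 at 0, 14 and 20 min. Every middle array was far above every early one, and TSA2 rose by 5.48 ± 0.56 (SE, adjusted p = 4.72e-05, limma). TSA1, the main cytosolic peroxiredoxin, had 2.21, 2.89, 0.81 and 2.09 in the same order, against -1.68, -0.84 and -2.62, and rose by 3.71 ± 0.57 (adjusted p = 0.00248). Its 77 min value was the lowest of the 4 and still above all 3 early ones.

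TRR1, the thioredoxin reductase that hands NADPH electrons to thioredoxin, stood at 3.41, 3.73, 2.05 and 4.43 at 55 to 85 min, against 0.26, 0.77 and 0.20 at 0 to 20 min. It rose by 3.00 ± 0.58 (adjusted p = 0.0116). TRX2, the inducible cytosolic thioredoxin, stood at 1.48, 1.47, 1.01 and 0.62, against -0.98, -1.15 and -0.79, and rose by 2.12 ± 0.38 (adjusted p = 0.00916), although 1 of its 2 probes differed by 0.15 and the other by 4.09. AHP1, a peroxiredoxin that favours alkyl hydroperoxides, rose by 1.92 ± 0.48 (adjusted p = 0.048), close to the threshold. SRX1, the sulfiredoxin that repairs over-oxidised peroxiredoxin, rose by 2.63 ± 0.59 (adjusted p = 0.0285), with values packed between 3.02 and 3.38 at 55 to 85 min, against 0.09 to 0.88 at 0 to 20 min. TSA2 and TSA1 passed with any 1 array left out, whereas TRR1 was lost without 20 min (adjusted p = 0.0576), TRX2 without 14 min (adjusted p = 0.0564) and SRX1 and AHP1 without any of 6 arrays (up to adjusted p = 0.144 and 0.185, both without 14 min). The list's count was 3 without 14 or 20 min and 3 with the arrays scaled to the same spread.

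Enzymes that reduce quinones, aldehydes and ketones gave the largest number of rises among the defence lists when all arrays were fitted. That order did not hold without 20 min, with 2 rises here and 4 in the glutathione list. Nor did it hold without 0 min, with 4 and 5. Of 21 tested, 8 rose, none fell and 20 differences were positive, with a median of 1.51. AAD14, of a family of putative aryl-alcohol dehydrogenases, had 2.67, 3.22, 2.65 and 4.79 at 55 to 85 min, against -1.75, -1.33 and -2.55 at 0 to 20 min. The windows were 5.21 ± 0.93 apart (adjusted p = 0.0086), and the lowest early value of AAD14 fell at 20 min. GRE2, a methylglyoxal reductase, had 4.46, 3.99, 3.01 and 3.73, against -1.82 at 0 min and -0.89 at 20 min with no value at 14 min, and rose by 5.15 ± 0.67 (adjusted p = 0.000635) over 4 against 2 arrays.

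PST2, a flavodoxin-like protein related to quinone reductases that pass 2 electrons at once, had 2.81, 3.25, 2.91 and 4.35 at 55 to 85 min, against -0.72, -1.01 and -2.12 at 0 to 20 min. PST2 rose by 4.61 ± 0.51 (adjusted p = 7.87e-05). The other 5 risen members, named after their values were seen, were AAD3, AAD6 and AAD15, whose probes may share signal with AAD14, the NADPH-dependent alcohol dehydrogenase gene ADH6 and the PST2 relative YCP4, with differences of 2.03 to 3.12. The old yellow enzymes, flavoproteins that reduce quinone-like compounds, did not pass. OYE3 had 4.41, 4.48, 1.85 and 3.19, against 0.57, 0.50 and 3.41, where the 20 min array overlapped the later ones (difference 1.99 ± 0.85, adjusted p = 0.276). OYE2 differed by 0.61 ± 0.49 (adjusted p = 0.623). The list's count was 2 without 20 min, 4 without 0 or 14 min, 5 without 70 min and 5 with arrays scaled to the same spread, and AAD14 itself was lost without 20 min (adjusted p = 0.0511). GRE2 could not be tested without 0 or 20 min.

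Glutathione enzymes rose in part. Of 22 members tested, 5 rose, none fell and 19 differences were positive, with a median of 0.63. GPX2, a glutathione peroxidase-like enzyme, had 4.27, 3.74, 3.15 and 3.63 at 55 to 85 min, against -1.07, -1.51 and -0.80 at 0 to 20 min, and rose by 4.83 ± 0.60 (adjusted p = 0.0004). GTT2, a glutathione transferase, had 5.65, 5.73, 4.48 and 4.65, against 0.49, 0.64 and 0.12, and rose by 4.71 ± 0.49 (adjusted p = 4.72e-05). ECM4, of the omega class of glutathione transferases, had 4.10, 4.84, 2.93 and 4.22, against 0.80, 0.58 and 0.69, and rose by 3.33 ± 0.48 (adjusted p = 0.00126). These 3 passed whichever array was left out.

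GSH1, the enzyme of the first step of glutathione synthesis, had 0.62, 2.50, 2.02 and 2.81 at 55 to 85 min, against 0.47, -0.47 and -0.93 at 0 to 20 min. It rose by 2.30 ± 0.57 (adjusted p = 0.0444), but its 2 probes disagreed, at -1.49 and 2.66, and the call was lost without any of 5 arrays (up to adjusted p = 0.18, without 20 min). GLR1, which reduces glutathione disulfide, differed by 1.56 ± 0.48 (adjusted p = 0.109), with 1.97 to 2.20 against 0.28 to 0.81. YCF1, which carries glutathione conjugates into the vacuole, differed by 0.08 ± 0.50 (adjusted p = 0.968).

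Enzymes that act on superoxide and hydrogen peroxide came next, with 2 of 6 members risen, none fallen and a median of 1.23. SOD1, the copper-zinc superoxide dismutase, had 2.07, 1.84, 1.75 and 1.48 at 55 to 85 min, against -0.17, -0.27 and -1.21 at 0 to 20 min, and rose by 2.33 ± 0.44 (adjusted p = 0.0104). CCP1, the cytochrome c peroxidase of mitochondria, had 4.83, 3.12, 3.36 and 3.19, against -1.35, 0.17 and -0.56, and rose by 4.21 ± 0.70 (adjusted p = 0.00457). The call of SOD1 was lost without 20 min (adjusted p = 0.0634), which left the list with 1, and that of CCP1 was not lost. SOD2, the manganese enzyme of mitochondria, differed by 0.33 ± 0.40 (adjusted p = 0.783), and its 3 probes ran from -1.44 to 2.99. CTT1, the cytosolic catalase, had 0.77 to 1.76, against -1.62 to 0.36, and differed by 1.70 ± 0.53 (adjusted p = 0.116).

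Of 14 exporters of drugs and quinones, 2 rose, with a median of 0.95. FLR1, a plasma membrane exporter under Yap1, had 3.35, 3.58, 1.47 and 2.93 at 55 to 85 min, against -1.04, -0.03 and -1.95 at 0 to 20 min, and rose by 3.84 ± 0.61 (adjusted p = 0.00332). TPO3, a polyamine exporter, rose by 1.89 ± 0.39 (adjusted p = 0.0188), and was lost without 14, 20 or 70 min (adjusted p = 0.117, 0.056 and 0.07), which left FLR1 alone in the count. ATR1, another exporter, lay below 0 on all 7 arrays and differed by -0.38 ± 0.58 (adjusted p = 0.84). None of 18 regulators of the oxidant response passed. YAP1 itself had 1.25, 0.86, 0.59 and 1.90, against 0.13, 0.26 and -1.04, a difference of 1.36 ± 0.55 (adjusted p = 0.247), and RPN4, the activator of proteasome genes, differed by 1.67 ± 0.55 (adjusted p = 0.141). ZWF1, the glucose-6-phosphate dehydrogenase that makes NADPH, was the 1 member of 11 of the pentose phosphate pathway to rise. Its values were 3.71, 3.98, 1.93 and 3.60, against 1.36, 0.48 and 0.76, and it rose by 2.44 ± 0.54 (adjusted p = 0.0285), a call lost without any of 5 arrays (up to adjusted p = 0.139, without 14 min).

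Among the largest rises were also genes outside these lists. OSI1, named for its induction by oxidants, had 4.61, 5.83, 3.93 and 5.42 at 55 to 85 min, against -1.14, -0.39 and -1.17 at 0 to 20 min. Its rise of 5.84 ± 0.58 (adjusted p = 4.72e-05), the largest that passed, would be 57.5-fold if the values are log2. YMR027W (4.38 ± 0.56, adjusted p = 0.000418), YNL134C (4.22 ± 0.69, adjusted p = 0.00374) and YMR090W (4.03 ± 0.62, adjusted p = 0.00248) have only systematic names in the annotation used. YNL134C stood between 3.66 and 4.36, against -0.77 to 0.39. HPF1, a cell wall mannoprotein, rose by 3.88 ± 0.75 (adjusted p = 0.0126), YRO2, a membrane protein related to Hsp30, by 3.83 ± 0.63 (adjusted p = 0.00414) and GOR1, a glyoxylate reductase, by 3.82 ± 0.68 (adjusted p = 0.00845). Of these, HPF1 was lost without 14 or 70 min (adjusted p = 0.0907 and 0.0526) and GOR1 without 20 min (adjusted p = 0.0524).

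General stress genes, many of them targets of Msn2/4, rose in 6 of 32 members tested, with none fallen, 28 positive differences and a median of 1.20. YGP1, a cell wall glycoprotein of starved cells, had 2.94, 2.71, 0.75 and 2.77 at 55 to 85 min, against 0.12, -0.94 and -2.16 at 0 to 20 min, and rose by 3.28 ± 0.73 (adjusted p = 0.0285). HSP30, of the plasma membrane, had 4.99, 3.27, 3.23 and 1.93, against 0.77, -0.81 and 0.58, and rose by 3.18 ± 0.68 (adjusted p = 0.0238). DDR48, a DNA damage-responsive flocculent protein, had 2.52, 3.16, 3.81 and 3.79, against 0.60, -0.38 and 0.55, and rose by 3.06 ± 0.58 (adjusted p = 0.0105). HSP12, a small membrane protein often used as a stress reporter, overlapped between windows, with -0.24, 2.29, -0.18 and 1.04 against -1.62, -1.85 and -0.13 (difference 1.92 ± 0.59, adjusted p = 0.109). The differences of its 4 probes ran from 0.19 to 3.80. None of the list's 6 calls was left without 14 min, 1 without 20 min and 3 without 70 or 85 min, and the named 3 then had adjusted p of 0.115 (YGP1), 0.139 (HSP30) and 0.0875 (DDR48) without 14 min.

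Other stress-related lists had at most 1 member past the test each, beside the 1.22% of all genes tested that rose. Some moved more by overlap. On all 4 middle arrays 8 of 15 trehalose and glycogen genes lay above all early arrays, and 1 lay below. So did 4 of 14 autophagy and vacuolar protease genes, 6 of 33 proteasome genes and 3 of 25 chaperones, with 0 below in each. Of all genes 6.83% lay above and 8.05% below. Of 25 heat shock chaperones 1 rose, HSP31, a methylglyoxal-removing chaperone (2.62 ± 0.49, adjusted p = 0.0097), and the list median was 0.44. Of 18 genes of trehalose and glycogen metabolism 1 rose, TPS1, the trehalose-6-phosphate synthase (2.28 ± 0.48, adjusted p = 0.0219), with 16 positive differences and a median of 0.91. Among 15 genes of autophagy and vacuolar proteases APE1, a vacuolar aminopeptidase, rose by 2.58 ± 0.56 (adjusted p = 0.0249). None of 33 proteasome genes passed, although 31 differences were positive with a median of 0.62. None of 29 sulfur amino acid genes and none of 27 iron uptake genes passed, with medians of -0.03 and 0.36, and FIT2, a wall mannoprotein of iron uptake, differed by -0.16 ± 0.49 (adjusted p = 0.927). ISU2, a scaffold on which iron-sulfur clusters are built, was the 1 riser of 18 in its list, at 2.78 ± 0.64 (adjusted p = 0.0302). Without 14 min the adjusted p was 0.0634 for HSP31, 0.0634 for TPS1, 0.12 for APE1 and 0.107 for ISU2, and without 20 min it was 0.0576, 0.0827, 0.0511 and 0.163. TPS1, APE1 and ISU2 were each lost without 3 further arrays.

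**Figure D2:**
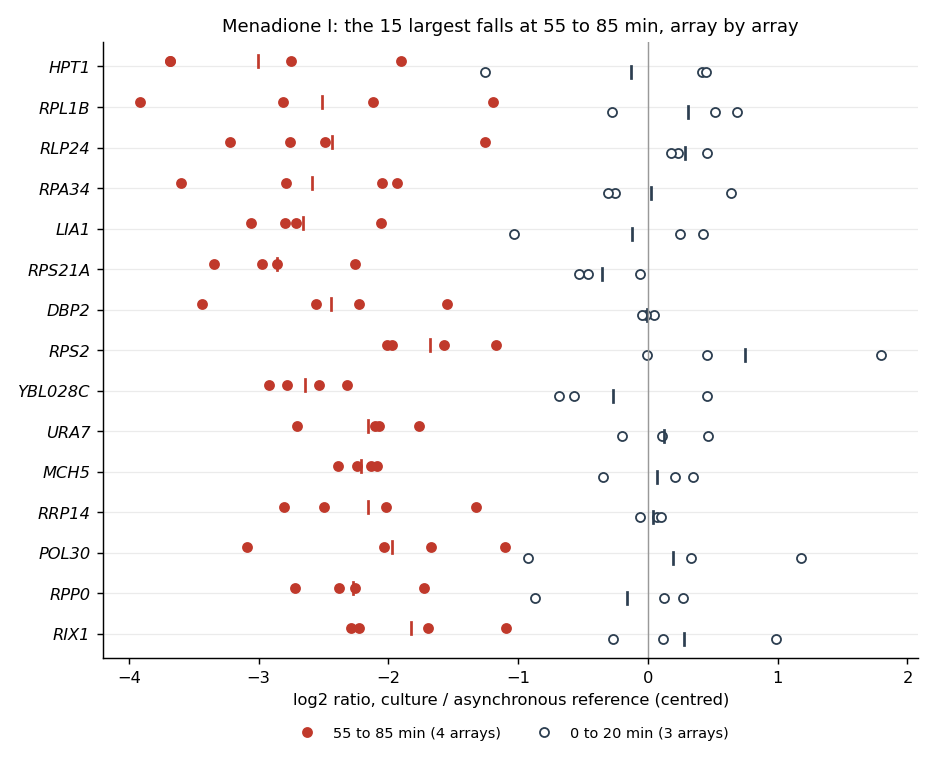
Log2 ratio of culture over asynchronous reference (x axis, array medians at 0) for the 15 genes with the largest fall under the same conditions, drawn as in the plot of the rises. Filled points are 55 to 85 min, open points 0 to 20 min. HPT1 and RPL1B lie farthest apart, with differences of -2.88 and -2.82.

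The falls that passed ran down to -2.88, in size under the 5.84 of the largest rise, and 20 of the 38 were members of the 3 ribosome-related lists. Of 133 cytosolic ribosomal protein genes tested, 14 fell, none rose and 128 differences were negative, with a median of -1.12. On all 4 middle arrays 73 of 132 members lay below all early arrays, against 8.05% of all genes. RPL1B, of the large subunit, had -1.19, -3.91, -2.81 and -2.12 at 55 to 85 min, against 0.69, 0.52 and -0.28 at 0 to 20 min, and fell by 2.82 on the log2 scale (SE 0.60, adjusted p = 0.0239). RPS21A, of the small subunit, had -2.97, -2.26, -3.34 and -2.86, against -0.46, -0.06 and -0.53 (difference -2.51 ± 0.51, adjusted p = 0.019). RPS2, also of the small subunit, had -1.17, -1.57, -2.01 and -1.97, against -0.01, 0.45 and 1.80 (difference -2.43 ± 0.57, adjusted p = 0.0328), and its 3 probes ran from -7.63 to -1.76. RPP0, the base of the ribosomal stalk, differed by -2.11 ± 0.49 (adjusted p = 0.0316). With 0, 14 or 20 min left out the list's count was 4, 0 and 1, and with 70, 77 or 85 min left out it was 2, 6 and 3. Without 14 min the adjusted p was 0.117 (RPL1B), 0.108 (RPS21A), 0.115 (RPS2) and 0.165 (RPP0).

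Genes of ribosome assembly showed the same sign. Of 74 tested, 5 fell, none rose and 63 differences were negative, with a median of -0.97. RLP24, which joins the large subunit before it leaves the nucleus, had -3.22, -2.76, -1.26 and -2.49 at 55 to 85 min, against 0.45, 0.23 and 0.17 at 0 to 20 min. Its fall of 2.72 on the log2 scale (SE 0.49, adjusted p = 0.00916) was the 1 of the 38 that passed whichever array was left out. RIX1, of a complex that processes the internal spacer of the large subunit RNA, differed by -2.11 ± 0.44 (adjusted p = 0.0221), and NOP13, a nucleolar RNA-binding protein, by -1.95 ± 0.47 (adjusted p = 0.0389). RPA34, a subunit of RNA polymerase I, which transcribes ribosomal RNA, had -1.94, -3.60, -2.05 and -2.79, against -0.26, 0.64 and -0.31 (difference -2.62 ± 0.49, adjusted p = 0.0097) and was the 1 of 20 polymerase I and III members to fall. Without 14 min the assembly count was 1 and RPA34, RIX1 and NOP13 had adjusted p of 0.0801, 0.134 and 0.199. The assembly count was 2 without 0 or 70 min and 3 without 77 or 85 min.

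The largest fall that passed was that of HPT1, which salvages hypoxanthine and guanine into nucleotides, with -3.69, -3.69, -2.75 and -1.90 at 55 to 85 min, against 0.42, 0.45 and -1.26 at 0 to 20 min (difference -2.88 ± 0.63, adjusted p = 0.0258). URA7, the CTP synthase, differed by -2.29 ± 0.46 (adjusted p = 0.0181), and LIA1, which completes the hypusine of translation factor eIF5A, by -2.54 ± 0.58 (adjusted p = 0.0299). DBP2, an RNA helicase, had early values within -0.05 to 0.05 and later ones of -1.55 to -3.44 (difference -2.44 ± 0.60, adjusted p = 0.0461). MCH5, a riboflavin transporter, stood at -2.09 to -2.39, against -0.34 to 0.35 (difference -2.28 ± 0.53, adjusted p = 0.0313). RRP14, a nucleolar protein of rRNA processing, and YBL028C differed by -2.20 ± 0.47 (adjusted p = 0.0234) and -2.37 ± 0.45 (adjusted p = 0.0104). ERG3, a sterol desaturase, was the 1 of 23 ergosterol genes to fall (-1.80 ± 0.41, adjusted p = 0.0292). Without 14 min the adjusted p of HPT1, URA7, LIA1, DBP2, MCH5, RRP14 and ERG3 was 0.139, 0.11, 0.159, 0.154, 0.153, 0.108 and 0.159, and YBL028C was lost without 0 min (adjusted p = 0.0564). Each of the 7 was also lost without at least 2 other arrays.

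A few single genes of other lists passed. Over all genes tested 1.22% rose, so nothing is read about these lists from 1 member each. MRPL3, of the mitochondrial ribosome, rose by 2.07 ± 0.45 (adjusted p = 0.0244) as the 1 of 65 members, whose median was 0.15. NDI1, the internal NADH dehydrogenase of mitochondria, rose by 1.71 ± 0.38 (adjusted p = 0.0258) as the 1 of 42 respiration genes, and TDH3, a glyceraldehyde-3-phosphate dehydrogenase, by 1.99 ± 0.45 (adjusted p = 0.0285) as the 1 of 22 glycolysis genes, with its 2 probes at 0.32 and 3.66. PST1, a cell wall protein that protoplasts secrete, had 1.72, 2.00, 0.80 and 0.71 at 55 to 85 min, against -0.90, -2.66 and -3.15 at 0 to 20 min, and rose by 3.55 ± 0.50 (adjusted p = 0.00123). It was the 1 of 18 cell wall genes to rise, in a list whose median was -0.43. MRPL3, NDI1 and TDH3 were lost without 14 min (adjusted p = 0.145, 0.105 and 0.129), without 20 min (0.102, 0.105 and 0.119) and without 2 to 4 further arrays, and PST1 was not lost.

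Cell cycle lists had few members past the test and differed in level among the 3 early arrays. Histone mRNAs, which peak in S phase, had a median log2 ratio over 9 genes of -1.65, -2.24, -2.13 and -1.74 at 55, 70, 77 and 85 min, against -2.67, -0.16 and 0.52 at 0, 14 and 20 min. The 0 min array was thus the lowest of the 7 and the 20 min array the highest. The G1/S list of 39 genes, transcribed by SBF and MBF on entry into the cycle, had medians of -0.42, -0.39, 0.05 and -0.37, against -0.17, 1.00 and 0.53. The mating pheromone list had a median of 0.08 to 0.34 at 55 to 85 min, against 0.71, 0.25 and -0.09. The 3 early arrays therefore held different cell cycle lists at their highest, and none of the G1/S, histone, CLB2, SIC1 or mating lists had more than 1 member past the test. Without 0 min 2 of the 9 histone genes and 3 of the 39 G1/S genes passed, all of them lower at 55 to 85 min.

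The members that passed were POL30 and RME1. POL30, the sliding clamp of DNA replication, had -1.67, -3.09, -1.10 and -2.03 at 55 to 85 min, against -0.93, 1.18 and 0.33 at 0 to 20 min (difference -2.17 ± 0.53, adjusted p = 0.0434). RME1, a repressor of meiosis transcribed in early G1, had 0.45, 1.41, 0.65 and -0.02, against -0.89, -1.59 and -1.56 (difference 1.97 ± 0.42, adjusted p = 0.0234), although its 3 probes ran from -0.34 to 2.46. The SIC1 cluster of early G1 genes had medians of 0.39, 0.24, 0.13 and 0.01, against -0.38, -0.66 and -0.97, and 12 of its 18 differences were positive. The cyclin genes overlapped or missed the threshold: CLN2, of G1, differed by -0.83 ± 0.53 (adjusted p = 0.511) and CLB2, of mitosis, by 1.56 ± 0.58 (adjusted p = 0.198), with -1.09 to 0.06 against -2.70 to -1.53. SIC1, the inhibitor of S-phase cyclin kinase, differed by 1.17 ± 0.59 (adjusted p = 0.368), RNR1, of ribonucleotide reductase, by -0.95 ± 0.38 (adjusted p = 0.237) and FUS1, of mating, by 0.59 ± 0.43 (adjusted p = 0.582). Without 14 min POL30 and RME1 had adjusted p of 0.234 and 0.12, and both were also lost without 20 or 70 min. How much of any other change belongs to the cell cycle was not tested.

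**Figure D3:**
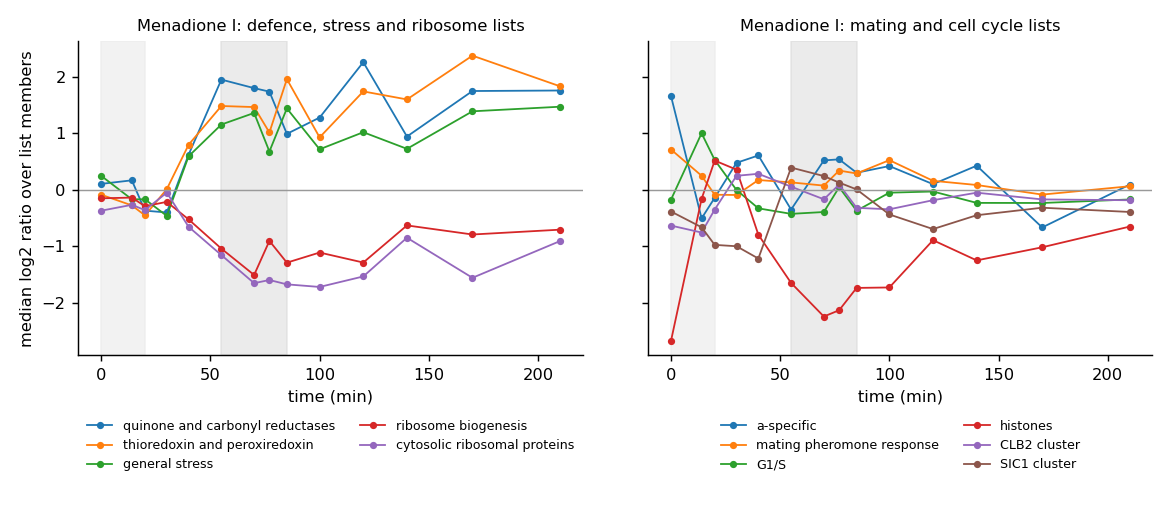
Median log2 ratio over list members (y axis) on the 14 arrays of menadione I by time (x axis, min), for 5 defence, stress and ribosome lists on the left and 6 mating and cell cycle lists on the right. The dark band marks 55 to 85 min and the light band 0 to 20 min. The quinone reductase list stands at 0.99 to 1.95 in the dark band, against -0.37 to 0.17 in the light one, and the histone list is at its lowest at 0 min.

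The next comparison asked how the window differed from the 30 and 40 min arrays before it, which share the 55 to 85 min arrays with the comparison above. Of 5498 genes tested, 12 were higher (0.218%) and 3 lower (0.0546%). The largest of the 12 were OSI1 (4.46), TSA2 (4.15), PST2 (3.99), YMR090W (3.97) and PST1 (3.82), with adjusted p of 0.00538 to 0.024, and the 3 lower were GAS3, of a family of wall glucan transferases (-2.99), NIP7, of ribosome assembly (-2.66), and ERG3 (-2.31), each at an adjusted p of 0.043. GAS3 had -1.95, -2.81, -2.79 and -1.60 at 55 to 85 min, against 1.15 and 0.25 at 30 and 40 min. Without 30 min none passed and without 40 min 22 did, 8 of them among the 15. Without 55, 70 or 77 min 7, 5 and 11 passed, none of them lower, and with arrays scaled to the same spread 5 passed, all of them higher.

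The 2 earlier arrays were unlike each other. For the 68 risen genes the median log2 ratio was 2.43, 2.74, 2.01 and 2.60 at 55, 70, 77 and 85 min, and -0.11 and 0.93 at 30 and 40 min. At 30 min 22 of the 68 lay above all 3 of their 0 to 20 min values, or 32.4%, against 23.4% of all genes, and at 40 min 59 did, or 86.8%, against 28.7%. The median gene had covered 4.94% of its difference between the windows at 30 min and 50.9% at 40 min. For the 38 fallen genes these shares were 5.13% and 41.4%. At 30 min 11 of the 38 lay below all of their early values, or 28.9%, against 22.0% of all genes, and at 40 min 31 did, or 81.6%, against 25.6%. OSI1 showed it in a single gene, at -0.65 at 30 min and 1.62 at 40 min. GPX2 and AAD14 had 3.99 and 2.96 at 40 min and so already lay within their range of 55 to 85 min, whereas PST1 had -2.52 on both arrays. The 0 to 20 min and 55 to 85 min values chose these genes. The former also set the bar and the start of these shares, and the latter their end, so the shares are a description only. The 30 and 40 min values themselves are independent of that choice, apart from their part in the pooled spread.

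**Figure D4:**
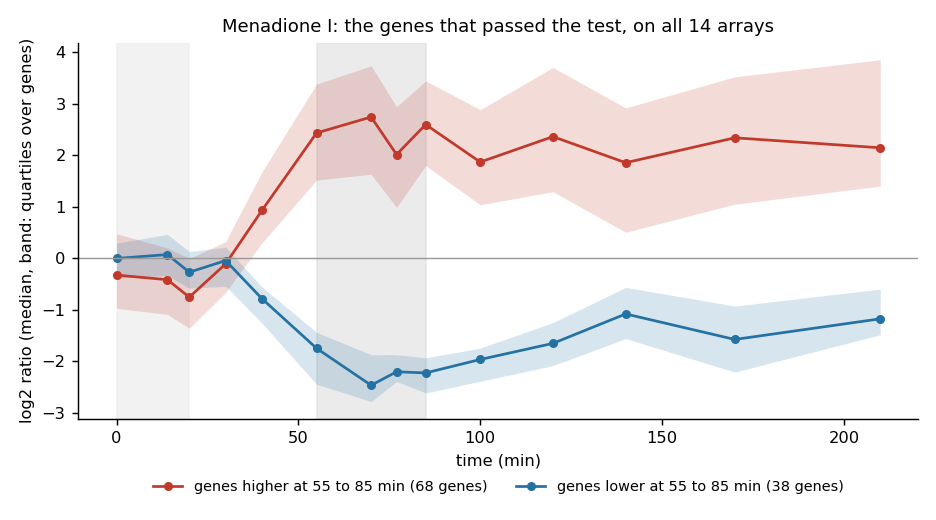
Median log2 ratio (lines) and quartiles over genes (bands) on each of the 14 arrays by time in min, for the 68 genes higher and the 38 genes lower at 55 to 85 min. The dark band marks 55 to 85 min and the light band 0 to 20 min, the 2 windows that chose the genes. The lines part between 30 and 40 min, and the 68 genes stay at a median of 1.85 to 2.36 from 100 to 210 min.

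The comparison with the later arrays asked whether the window passed or lasted, and used the same 4 arrays again. Against the 5 arrays at 100, 120, 140, 170 and 210 min, 0 of 5552 genes passed (0.00%), with 360 at an unadjusted p under 0.05 and a smallest adjusted p of 0.209, and 1 passed without 85 min. Of the 68 risen genes 58, or 85.3%, stayed above all of their 0 to 20 min values on every later array with a value, against 5.36% of 5428 genes with values on all of these arrays. Of the 38 fallen genes 26, or 68.4%, stayed below all of theirs, against 4.77%. The 0 to 20 min values that set this bar also chose the genes, so nothing is read from these shares beyond the description. The fallen genes stood at a median of -1.75, -2.47, -2.21 and -2.23 at 55 to 85 min, and at -1.97, -1.66, -1.08, -1.58 and -1.18 at 100 to 210 min. At 140 and 210 min the median fallen gene retained 49.3% and 50.4% of its difference. The 55 to 85 min values that set this difference also chose the genes for being low there. No return towards the early level is therefore read from these shares. HPF1 ran from -0.98 at 100 min to 2.81 at 170 min, and AAD14 was at 0.06 at 140 min and between 3.45 and 4.69 on the other later arrays. Pairs of arrays within 55 to 85 min correlated over genes at 0.47 to 0.64, pairs across the windows at 0.37 to 0.60 with 100 to 210 min, and at 0.13 to 0.39 with 0 to 20 min. Pairs within 0 to 20 min correlated at only 0.317 to 0.335, inside the range of their pairs with 55 to 85 min. The 0 min array was closer to 55 min (0.385) than to 14 min (0.335) or 20 min (0.317), so the early arrays were not a tight group. All 14 arrays were set against reference RNA of the same label.

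Within the window no gene separated its end from its start. Of 5454 genes tested at 77 and 85 min against 55 and 70 min, 0 passed (0.00%), with 313 at an unadjusted p under 0.05 and a smallest adjusted p of 0.47. With only 2 arrays against 2, the median SE of a difference was 0.64 on the log2 scale. HSP30 had its highest value at 55 min and its lowest at 85 min, 1.93, for a difference of -1.55 (adjusted p = 0.88), and GTT2 differed by -1.12 (adjusted p = 0.88). Leaving out 85 or 70 min gave 6 and 1 genes.

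The same times of the other courses were then set beside this window. They come from array tables normalised apart, so no test was run across them. In menadione II 120 of 5536 genes rose (2.17%) and 159 fell (2.87%), and in peroxide I 360 of 5551 rose (6.49%) and 496 fell (8.94%). Of the 68 genes risen here 65 had a positive difference in menadione II and 64 in peroxide I, and 30 and 50 of them passed there. Over all genes tested, 50.25% and 52.06% of differences were positive. The 30 are 44.1% of the 68 and 25% of the 120 risen in menadione II, and the 50 are 73.5% of the 68 and 13.9% of the 360 risen in peroxide I. Of the 38 fallen here 36 had a negative difference in menadione II and 38 in peroxide I, and 15 and 28 passed. The shares of negative differences over all genes were 49.75% and 47.94%. Over genes, the differences of the window correlated with those of menadione II at r = 0.48 and rho = 0.41 (5511 genes), and with those of peroxide I at r = 0.60 and rho = 0.50 (5550 genes), as descriptions of single cultures that also share the time axis.

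Of the 15 largest rises 12 also passed in both other courses, all but AAD14, GTT2 and CCP1. Of the 15 largest falls 8 also passed in menadione II, 12 in peroxide I and 6 in both. OSI1 rose by 4.52 in menadione II (adjusted p = 0.0022) and by 5.10 in peroxide I (adjusted p = 0.000642). GTT2 did not follow: its difference was -0.19 ± 0.56 in menadione II (adjusted p = 0.888) and 1.40 ± 0.64 in peroxide I (adjusted p = 0.155), beside 4.71 here, and whether these differ was not tested. PST1 likewise differed by 0.85 (adjusted p = 0.692) and 0.08 (adjusted p = 0.91), beside 3.55. RLP24, the steadiest fall here, differed by -0.94 and -0.82 and passed in neither. OYE2, at 0.61 here, rose by 2.13 in menadione II (adjusted p = 0.022), and SOD2 rose by 2.44 in peroxide I (adjusted p = 0.000384), beside 0.33 here. Cytosolic ribosomal protein genes fell in 14 of 133 here, in 36 in menadione II and in 125 in peroxide I, with medians of -1.12, -0.95 and -2.10. Heat shock chaperones rose in 1 here, in 2 in menadione II and in 17 in peroxide I, with medians of 0.44, 0.35 and 1.33. Counts depend on the number of arrays and on the spread of each course. The median SE of a difference was 0.498 here, 0.461 in menadione II and 0.305 in peroxide I, so unlike counts need not be unlike changes. The menadione II count of genes called was 89 with arrays scaled to the same spread.

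**Figure D5:**
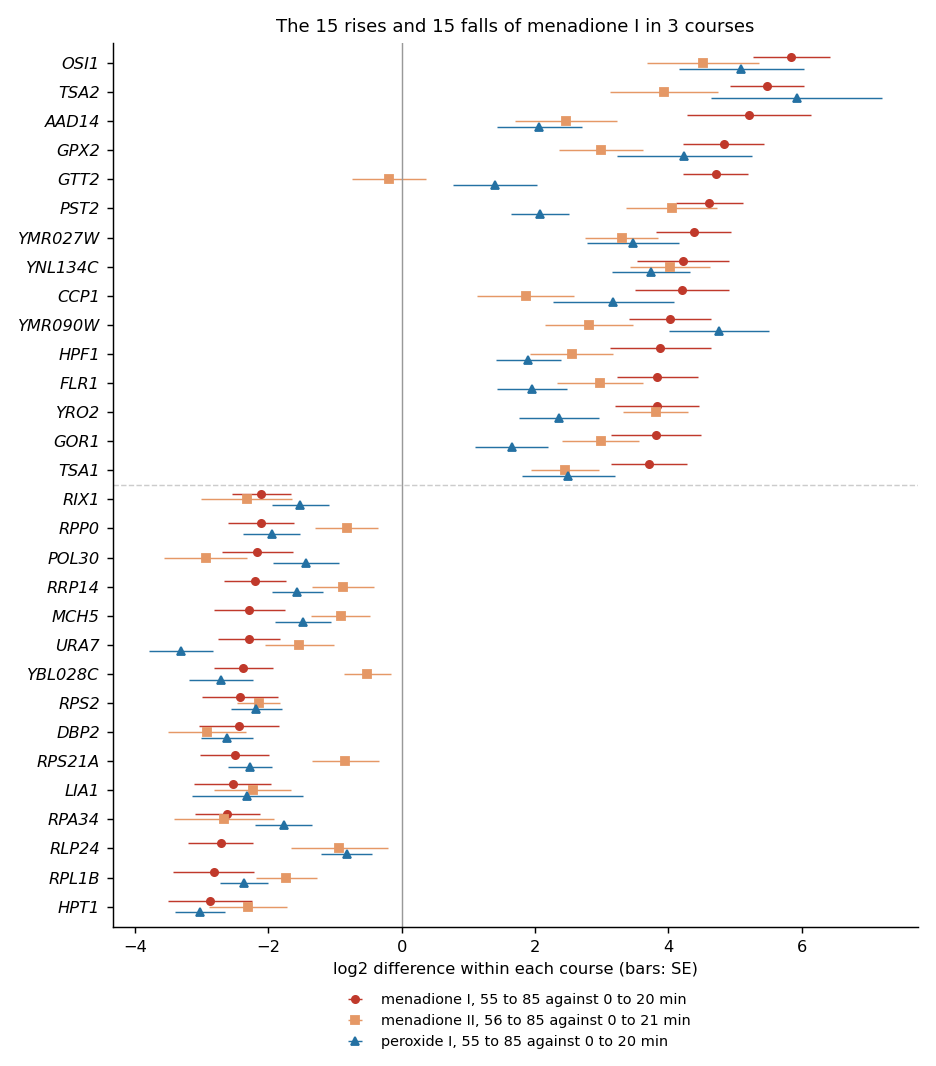
Log2 difference within each course (x axis, bars are SE) for the 15 largest rises (above the dashed line) and 15 largest falls of menadione I at 55 to 85 min, which chose these genes. Circles are menadione I, squares menadione II at 56 to 85 against 0 to 21 min, triangles peroxide I at 55 to 85 against 0 to 20 min. GTT2 is at 4.71 in menadione I, -0.19 in menadione II and 1.40 in peroxide I, while OSI1 is between 4.52 and 5.84 in all 3.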

How the data were processed

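RNA of menadione I was measured on 14 2-colour arrays, and the authors deposited 1 table of log ratios per array design, taken here as log2. Base, direction, spot filter, background correction, normalisation and strain are not given in the sources used here. Per the labels, Cy5 carried the experiment and Cy3 the asynchronous reference. The menadione I table held 13056 probes, of which 9565 named 1 gene in the platform annotation, none named several and 3491 were not named. Symbols were updated by gene identifier for 9555.

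Probes of a gene were averaged, arrays were centred on the median gene, and genes needed a value on 75% of arrays and on 2 arrays of each window compared. With limma 3.58.1 (R 4.3.3), 1 mean per window was fitted to all 14 arrays, so the windows share 1 spread, and the Benjamini-Hochberg adjustment ran over all genes tested (threshold 0.05). Menadione II and peroxide I were fitted in their own tables. Alternatives were no centring, equal spread, quantile normalisation, other filters, probe medians, 7 arrays alone, array weights, robust moderation, a wider window and left-out arrays. Leaving out 20 and 77 min together was chosen after seeing the data.

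The text names as many as 15 rises and 15 falls by size among genes that passed, with values on all 7 arrays and no overlap, up to 3 passing members per list, 26 genes given whatever their values, and up to 5 rises and 5 falls in each other comparison within the table. The window, the 34 gene lists and these rules were chosen with earlier results of these data known. No sequence is printed, since no sequence was at hand. No scan date or batch is given for these arrays in the labels.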

Additional observations from a re-analysis of the deposited data

Results flagged for a closer look

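Of 72 named genes, 2 had a value on 1 of the 4 arrays at 55 to 85 min that stood apart from the other 3 by Dixon's test, where chance gives about 1 in 20 groups. CCP1 was at 4.83 at 55 min, with the other 3 at 3.12 to 3.36. YGP1 was at 0.745 at 77 min, the array with the widest spread of the window, with the other 3 at 2.71 to 2.94.

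ATR1 differed in sign between the menadione courses. Its mean difference was -0.381 in menadione I, while all 4 arrays at 56 to 85 min of menadione II lay above its mean at 0 to 21 min, by 0.787 to 1.90. The difference between the courses was not tested, since their tables were normalised apart.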

How the results depend on the processing

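The comparison of 55 to 85 with 0 to 20 min called 106 genes, 68 higher and 38 lower. With arrays scaled to the same spread it called 68 (21 lower), by quantile normalisation 64 (18 lower), with only the 7 arrays 20 lower, with array weights 247 (129 higher, 118 lower) and without 20 and 77 min together 41 (33 higher, 8 lower). Of the main 106, 65, 63, 106 and 35 were called again under equal spread, quantiles, weights and both arrays left out. No centring, stricter or looser filters, probe medians, robust moderation and a 40 to 100 min window stayed within 1.5 times of all 3 counts. With 1 array left out it called 32 to 96 (21 to 60 higher, 2 to 39 lower). Against 30 and 40 min equal spread gave 5 genes, 5 higher and 0 lower, and left-out arrays 0 to 22 (0 to 19 higher, 0 to 3 lower). Left-out arrays gave 0 to 1 gene against 100 to 210 min (0 to 1 higher) and 0 to 6 within the window (0 to 6 higher). Menadione II gave 89 (43 higher, 46 lower) under equal spread and 135 to 235 with left-out arrays (54 to 111 higher, 81 to 130 lower), and peroxide I gave 592 to 901 with left-out arrays (191 to 388 higher). Signs turned for 3 of the 72 named genes, none of which passed: YCF1 was -0.100 under equal spread, -0.133 by quantiles and -0.042 to 0.297 with left-out arrays, SOD2 was -0.550 by the median of its probes, and FIT2 was -0.551 to 0.0852 with left-out arrays. The causes were not tested, except that left-out arrays make windows smaller. Fitted on their own, 2 of 2005 unnamed probes passed (0.0998%). No paired analysis was possible because replicate numbers only count arrays in order of accession and every array is another time of 1 culture. Signal over background is not in the files used, so depth could not be judged.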

Other observations

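Of the genes that passed at 55 to 85 against 0 to 20 min, 29 of the 68 risen and 16 of the 38 fallen belong to none of the 34 lists. The genes named here were picked after their values were seen and are a description. Among the risen were ARG80, a regulator of arginine genes (log2 difference 3.17 ± 0.52, adjusted p = 0.00374 in limma), GPT2, an acyltransferase of phospholipid synthesis (3.11 ± 0.67, adjusted p = 0.0246), UBI4, which encodes polyubiquitin (1.93 ± 0.44, adjusted p = 0.0302), PEX6, an ATPase of peroxisome formation (2.09 ± 0.39, adjusted p = 0.0097), and GID8, of the ubiquitin ligase that removes gluconeogenic enzymes (2.95 ± 0.63, adjusted p = 0.0239). With each of the 7 arrays left out in turn, ARG80 was called in 7 refits, PEX6 in 6, GID8 in 2 and GPT2 and UBI4 in 1 each.

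The fallen genes outside the lists, picked in the same way, included EFT2, an elongation factor gene with a near-identical copy. Its log2 ratio averaged -1.01 at 55 to 85 min, against 0.75 at 0 to 20 min (adjusted p = 0.0434). HGH1, which helps that factor fold, averaged -1.39, against 0.34 (adjusted p = 0.0323). EMG1, a methyltransferase of small subunit RNA, averaged -2.18, against -0.41 (adjusted p = 0.0324), and SYO1, which carries ribosomal proteins into the nucleus, averaged -2.39, against -0.42 (adjusted p = 0.0308). LHP1, which binds new polymerase III transcripts, averaged -1.81, against 0.23 (adjusted p = 0.0291). These calls were unsteady: with 1 array left out in turn, SYO1 was called in none of the 7 refits and EFT2, HGH1, EMG1 and LHP1 in 1 each.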
